A study of Homo sapiens with 27 samples.

Results

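The 7 genes described here set the level of polyamines and of stored iron in human cells: SAT1, OAZ1, ODC1 and AMD1 for polyamines, and FTH1, FTL and TFRC for iron. They were chosen by name, with earlier results of these data known. Their members were all deposited 3′-end peaks that overlap a fixed window around each gene on the gene's strand. The windows held 844 deposited peaks, which formed 47 merged peaks of 233020 in all, and 14 of the 47 were listed in each of the 27 libraries.

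Polyamines are small, positively charged molecules that bind nucleic acids. Ornithine decarboxylase (ODC1) makes putrescine, S-adenosylmethionine decarboxylase (AMD1) supplies the aminopropyl group that turns it into spermidine and spermine, and spermidine/spermine N1-acetyltransferase (SAT1) acetylates both for export or breakdown. Antizyme (OAZ1) binds ODC1 protein and sends it to the proteasome. Iron enters the cell through the transferrin receptor (TFRC) and is stored in ferritin, a shell of heavy (FTH1) and light (FTL) chains. Iron regulatory proteins bind hairpins called iron-responsive elements, near the start of ferritin mRNAs, where they block translation, and near the end of TFRC mRNA, where they protect it.

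The libraries count RNA 3′ ends in 3 human lines that the labels call lines of non-small cell lung cancer: H358, A549 and A549R, the last read here as the cisplatin-resistant counterpart that the design text mentions. Cisplatin and oxaliplatin, both platinum drugs, were given at 100 µM beside vehicle (DMSO); a time of exposure is not given in the sources used here. H358 RNA came from whole cells after cisplatin, oxaliplatin or DMSO, A549R and A549 RNA from the cytosol after cisplatin or DMSO. For A549 a further pair of groups, cisplatin and DMSO, held mRNA of heavy polysomes, which carries many ribosomes. Each of these 9 groups had 3 libraries, and nothing in the labels says that they came from separate cultures, so p-values measure only the spread between these libraries.

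The 3 short stretches below, all of reference sequence, are shown because regulation of these genes is known to act near their starts. They come from RefSeq on GRCh38.p14, where 6 of the 7 genes had a promoter entry. The FTL stretch lies at chr19:48965329-48965358 on the plus strand, within the first 50 transcribed bases, and the capitals mark CAGTGN, the loop letters of an iron-responsive element, found on the transcribed strand in 6.48% of 35116 promoter entries over the same 50 bases. The ODC1 stretch lies at chr2:10448024-10448053 on the minus strand, and the capitals mark CACGTG, the E-box bound by MYC family factors, found on either strand in 7.26% of entries. The SAT1 stretch is the 250 bases before the start, chrX:23782923-23783172 on the plus strand, and the capitals mark CCAAT or its reverse complement. This motif was found in 34.6% of entries, including some of AMD1, FTL and OAZ1. Both this share and that of the E-box were counted over 300 bases, from 250 before the start to 50 after. A match is a description of letters and not a bound site.
FTL: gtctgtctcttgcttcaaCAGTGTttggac
ODC1: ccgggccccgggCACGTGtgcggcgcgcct
SAT1: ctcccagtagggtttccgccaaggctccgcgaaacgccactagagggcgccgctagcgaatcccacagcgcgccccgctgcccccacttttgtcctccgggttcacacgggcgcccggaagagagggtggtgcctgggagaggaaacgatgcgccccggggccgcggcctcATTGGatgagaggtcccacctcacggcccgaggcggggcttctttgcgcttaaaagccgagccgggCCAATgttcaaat

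Total counts ran from 3024814 to 11997535 per library. The lists were of 2 kinds, since those of H358 oxaliplatin, A549 cytosol and the third polysome library of each treatment leave out many weak peaks, so an unlisted peak is not a count of 0. Levels below are therefore counts scaled to a common library size (CPM) over the 10283 peaks listed in all 27 libraries, with 1 set of scaling factors, and a gene's level is the sum of its ends among them. Tests used the larger set of peaks listed in every library of a fit, with edgeR's quasi-likelihood test and Benjamini-Hochberg adjustment over the whole table; a gene or end is called at an adjusted p under 0.05. Log2 changes are given with their standard error, and levels with the SD over 3 libraries. No genome or annotation of the files' build (hg19) was at hand, so whether an end lies in an exon, an intron or a 3′ untranslated region is not stated, and internal priming of oligo-dT was not tested.

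In 4 of the genes nearly all reads fell on a single end. FTL had 99.6% of its 1158067 reads at chromosome 19, 49469528 to 49470268, on the plus strand. OAZ1 had 99.5% of 135976 reads at chromosome 19, 2272963 to 2273497, plus strand. FTH1 had 98.6% of 132555 reads at chromosome 11, 61731710 to 61732618, minus strand, and ODC1 95.8% of 23817 reads at chromosome 2, 10580458 to 10580992, minus strand. The other 3 genes divided their reads. SAT1 had 51.1% of 18947 reads at its last end (chromosome X, 23803634 to 23804340, plus strand), 37.3% at an end 2792 bases upstream (23801287 to 23801548) and 11.5% between them (23801754 to 23802292, listed in 26 libraries). The upstream SAT1 end lay 348 bases from the window's 5′ edge. It counts in the SAT1 level, with 179 of 473 CPM in H358 cisplatin and 161 of 322 CPM in A549 cytosol cisplatin. The SAT1 level is therefore not a level of full-length mRNA alone. AMD1 had 68.1% of 8601 reads at chromosome 6, 111214669 to 111215715, plus strand, 22.01% at an end further downstream (111216477 to 111216924) and 8.42% at an end 19385 bases upstream (111195985 to 111196330), which 17 libraries listed. TFRC had 79.6% of 21809 reads at chromosome 3, 195776084 to 195776980, minus strand, and 13.8% at an end 25948 bases upstream (195802032 to 195802238). Each of the remaining ends held under 5% of its gene's reads. RefSeq names 27 pseudogenes of FTH1, 20 of FTL, 4 of AMD1 and 1 of OAZ1, so levels of these genes are uncertain to the extent that reads were shared with copies.

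**Figure D1:**
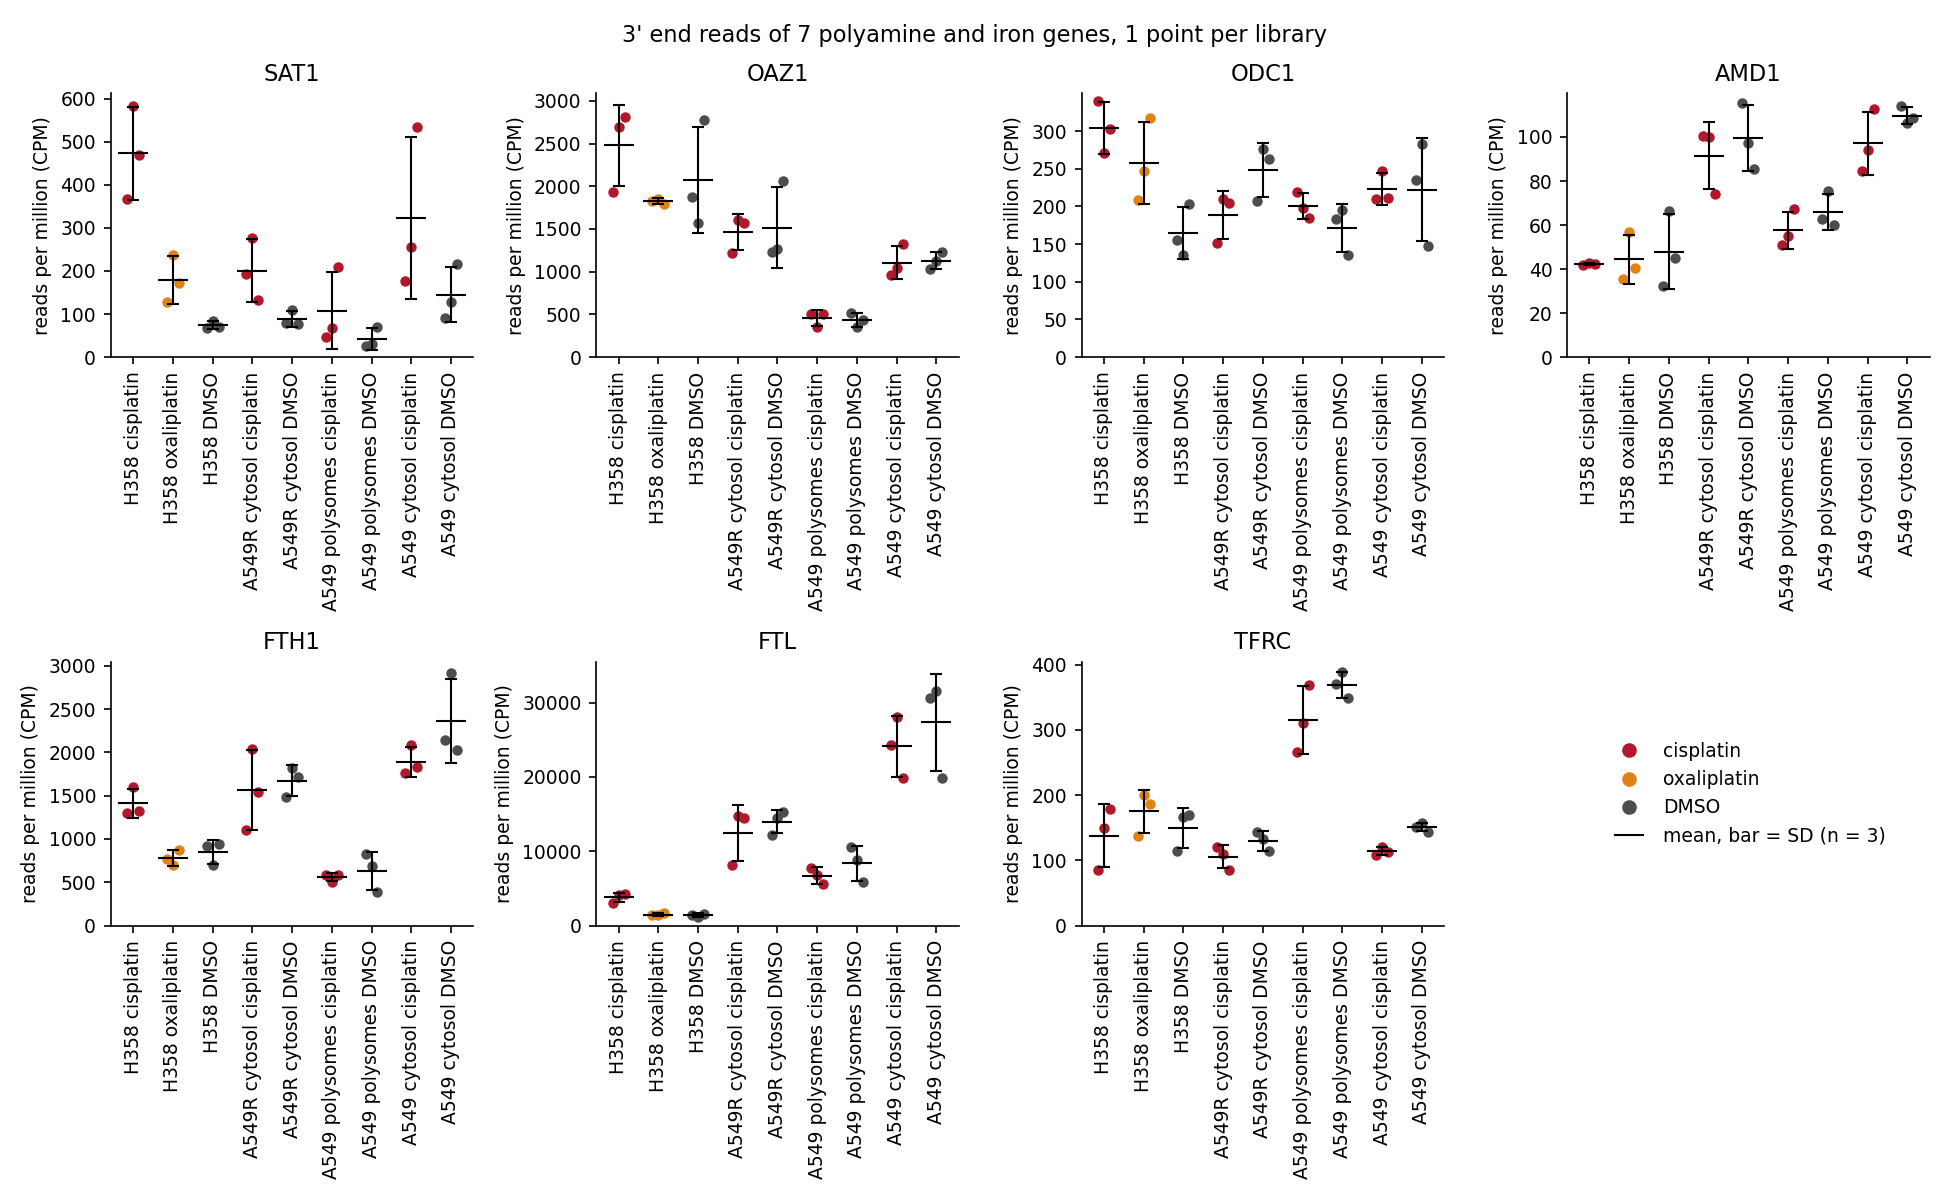
Level of each gene (CPM, linear axis from 0) in each of 27 libraries, by group, with the mean and SD of 3 libraries. SAT1 is highest in H358 cisplatin (473 ± 109 CPM), FTL in A549 cytosol DMSO (27329 ± 6499 CPM) and TFRC in A549 polysomes DMSO (369 ± 19.9 CPM).

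Across the 9 groups FTL spanned the widest range of levels, with 1406 ± 237 CPM in H358 DMSO at the low end and 27329 ± 6499 CPM in A549 cytosol DMSO at the high end. SAT1 ranked first in H358 cisplatin, at 473 ± 109 CPM, and last in A549 polysomes DMSO, at 42.3 ± 24.9 CPM. Its next level, 322 ± 188 CPM in A549 cytosol cisplatin, did not stand apart from the first by more than the spread of its libraries. AMD1, the gene with the fewest reads, was lowest in H358 cisplatin, at 42.3 ± 0.545 CPM, and highest in A549 cytosol DMSO, at 110 ± 4.02 CPM. ODC1 varied least in order, since its 9 group means lay between 165 ± 34.8 CPM in H358 DMSO and 304 ± 34.5 CPM in H358 cisplatin and neighbouring groups overlapped. OAZ1 was lowest in both polysome groups, at 457 ± 88.6 CPM in cisplatin and 434 ± 84.8 CPM in DMSO, and TFRC was highest in the same groups, at 315 ± 51.8 and 369 ± 19.9 CPM.

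The first comparison asked how cisplatin changes the genes in H358 cells. SAT1, which acetylates spermidine and spermine, rose most of the 7, and both ferritin chains and ODC1 also rose, so that 4 of 7 genes were called higher and 0 lower. Over all 14358 rows tested, 26.2% were called, 11.8% higher and 14.4% lower. The median log2 change was 0.61 over the 7 genes and -0.04 over all rows.

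SAT1 had 366, 584 and 469 CPM in H358 cisplatin libraries, against 67.5, 84.3 and 70.9 CPM in H358 DMSO libraries. The lowest cisplatin library lay far above the highest DMSO library, and the ratio of means was 6.37. Its log2 change was 2.55 ± 0.25 (edgeR adjusted p = 2.72e-07); in bulk libraries, a change in the mix of cells and a change per cell cannot be told apart. The upstream end rose by 2.72 ± 0.26 and the last end by 2.45 ± 0.28 on the log2 scale, both called. Of the reads at these 2 ends, the upstream end held 38.1 ± 3.61% in cisplatin and 34.1 ± 8.21% in DMSO, groups that overlapped. The end between them is left out of this share, since it was not listed in every H358 library. With every listed peak of the window counted, the difference in share changed sign.

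Among the genes of polyamine synthesis, ODC1 had 339, 271 and 302 CPM in cisplatin libraries, against 156, 136 and 203 CPM in DMSO libraries. The groups did not overlap, and the log2 change was 0.77 ± 0.23 (edgeR adjusted p = 0.015). AMD1 had 41.9, 42.9 and 42.1 CPM in cisplatin libraries and 32.4, 66.4 and 45.0 CPM in DMSO libraries. Here the DMSO libraries spread to both sides of the cisplatin libraries, with a log2 change of -0.30 and a 95% interval of -0.88 to 0.28. Antizyme, OAZ1, had 1933, 2688 and 2815 CPM in cisplatin and 1876, 1575 and 2773 CPM in DMSO, with a log2 change of 0.14 and an interval of -0.33 to 0.62.

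Of the iron genes, FTL had 3093, 4125 and 4199 CPM in cisplatin libraries, against 1448, 1151 and 1619 CPM in DMSO libraries, with a log2 change of 1.32 ± 0.22 (edgeR adjusted p = 0.000151). Both weak upstream ends of FTL were called higher as well, by 1.65 ± 0.40 and 1.22 ± 0.41 on the log2 scale. FTH1 had 1306, 1606 and 1324 CPM in cisplatin libraries, against 917, 694 and 947 CPM in DMSO libraries. Its groups did not overlap, and its log2 change of 0.61 ± 0.21 (edgeR adjusted p = 0.0376) was smaller than that of FTL. Within each library, where scaling plays no part, FTL reads per FTH1 read were 2.37, 2.57 and 3.17 in cisplatin and 1.58, 1.66 and 1.71 in DMSO.

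TFRC as a whole was not called in H358 cisplatin, with 84.7, 150 and 179 CPM against 114, 166 and 169 CPM in DMSO and a log2 change of -0.27 (interval -0.80 to 0.26). Of its ends, the upstream one had 11.1 ± 1.11 CPM in cisplatin and 30.2 ± 5.52 CPM in DMSO. It fell by 1.58 on the log2 scale (standard error 0.30, edgeR adjusted p = 0.000474). The strongest end had 127 ± 47.2 CPM in cisplatin and a log2 change of -0.04 ± 0.27 that was not called. These 2 ends together had 267, 217 and 289 reads in the cisplatin libraries, so the upstream value there rests on few reads. A share was taken over the 3 TFRC ends listed in every H358 library, the third lying at 195777396 to 195778764. The part outside the strongest end was 11.6 ± 4.17% in cisplatin and 24.1 ± 3.93% in DMSO, a difference of -12.6 percentage points. Every cisplatin library lay below every DMSO library, and the exact two-sided permutation test gave p = 0.1, the smallest that 3 against 3 allows (0.353 after adjustment over 53 such tests).

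**Figure D2:**
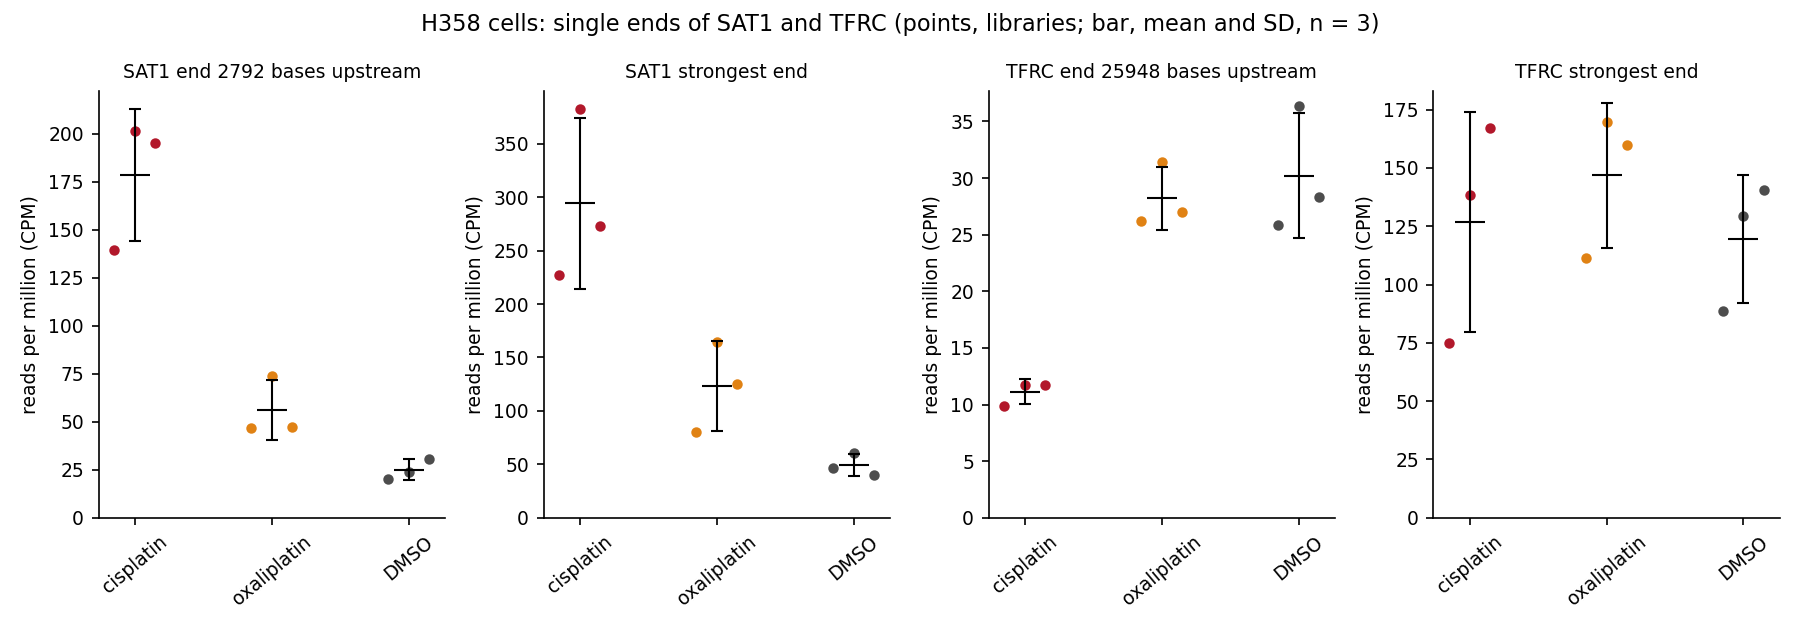
CPM at single ends of SAT1 and TFRC in the 9 H358 libraries, with the mean and SD of 3 libraries. Both SAT1 ends are high in cisplatin, while the upstream TFRC end is low (11.1 ± 1.11 CPM, against 30.2 ± 5.52 CPM in DMSO) and the strongest TFRC end overlaps between groups.

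Mitochondrial peaks took 24.1% to 27.9% of common-peak counts in H358 cisplatin and 11.2% to 11.6% in H358 DMSO, and their part in these results was not tested. Without scaling factors the median log2 change of all rows was -0.37, against -0.04 with them, and the calls over all rows split into 965 higher and 3723 lower, against 1695 and 2066; SAT1 and FTL were still called, while ODC1 (0.45, edgeR adjusted p = 0.141) and FTH1 (0.26, edgeR adjusted p = 0.308) were not and OAZ1 turned to -0.20. With all peaks of mean count at least 5, where an unlisted peak enters as 0, ODC1 (0.28, edgeR adjusted p = 0.445) and FTH1 (0.09, edgeR adjusted p = 0.722) were not called either, and with no count minimum ODC1 (0.24) and FTH1 (0.01) were not called while AMD1 (-1.12, edgeR adjusted p = 0.0122) and TFRC (-0.90, edgeR adjusted p = 0.0205) were called lower. FTH1 also lost its call without cisplatin replicate 2 or 3, DMSO replicate 1 or 2 or oxaliplatin replicate 3 (edgeR adjusted p up to 0.149), and ODC1 without cisplatin replicate 1 or DMSO replicate 2 (up to 0.0643).

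A second platinum drug, oxaliplatin, was set against DMSO in the same H358 cells. SAT1 rose, with 128, 238 and 172 CPM in oxaliplatin libraries, against 67.5, 84.3 and 70.9 CPM in DMSO libraries. All 3 oxaliplatin libraries lay above the DMSO libraries, with a log2 change of 1.22 ± 0.25 (edgeR adjusted p = 0.00446), and both SAT1 ends were called higher, by 1.11 ± 0.25 upstream and 1.26 ± 0.27 at the last end. SAT1 was the only one of 7 genes called, where 5.34% of all rows were called, 1.27% higher and 4.06% lower. All 3 oxaliplatin lists were of the shorter kind and all H358 cisplatin and DMSO lists of the longer kind, so list kind and oxaliplatin cannot be told apart. With all peaks of mean count at least 5 the SAT1 value was 0.35 (edgeR adjusted p = 0.278), and with no count minimum 0.54 (edgeR adjusted p = 0.181), neither called. ODC1 had 209, 247 and 317 CPM in oxaliplatin, against 156, 136 and 203 CPM in DMSO; its groups did not overlap, but its log2 change of 0.60 ± 0.23 was not called (edgeR adjusted p = 0.128). With the replicate number as a block it was (edgeR adjusted p = 0.0283). Neither ferritin chain was called, with log2 changes of 0.02 for FTL (interval -0.43 to 0.47) and -0.17 for FTH1 (interval -0.61 to 0.26). OAZ1 had a log2 change of -0.23, AMD1 of -0.17 and TFRC of 0.19, all not called.

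Cisplatin and oxaliplatin, which differ in the ligands held by the platinum atom, were then compared directly at 100 µM, again with list kind and drug coinciding. In cisplatin 3 of 7 genes were higher and 0 lower, where 19.2% of all rows were called, 9.74% higher and 9.44% lower. SAT1 averaged 473 ± 109 CPM in cisplatin and 179 ± 55.6 CPM in oxaliplatin, with a log2 difference of 1.33 ± 0.24 (edgeR adjusted p = 0.000535). FTL averaged 3806 ± 618 CPM in cisplatin and 1473 ± 186 CPM in oxaliplatin, with a log2 difference of 1.30 ± 0.22 (edgeR adjusted p = 0.000256). FTH1 averaged 1412 ± 168 CPM in cisplatin and 780 ± 90.7 CPM in oxaliplatin, a log2 difference of 0.78 ± 0.21 (edgeR adjusted p = 0.0124). For each of the 3 genes the lowest cisplatin library lay above the highest oxaliplatin library.

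The other 4 genes were not called between the drugs. The log2 difference of cisplatin over oxaliplatin was 0.17 for ODC1 (interval -0.29 to 0.64), 0.37 for OAZ1 (interval -0.10 to 0.85), -0.13 for AMD1 (interval -0.71 to 0.45) and -0.46 for TFRC (interval -0.99 to 0.07). These intervals do not show that the drugs act alike on them. Of the TFRC ends, 2 were called lower in cisplatin. The one at 195777396 to 195778764 had a log2 difference of -1.30 ± 0.38 (edgeR adjusted p = 0.0201), and the one 25948 bases upstream was lower in cisplatin, at 11.1 ± 1.11 CPM, than in oxaliplatin, at 28.2 ± 2.79 CPM, with a log2 difference of -1.42 ± 0.30 (edgeR adjusted p = 0.00174). Without scaling factors, where all rows split into 759 higher and 3330 lower, against 1398 and 1356 with them, FTH1 lost its call (0.38, edgeR adjusted p = 0.137) and TFRC gained one (-0.85, edgeR adjusted p = 0.0122).

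**Figure D3:**
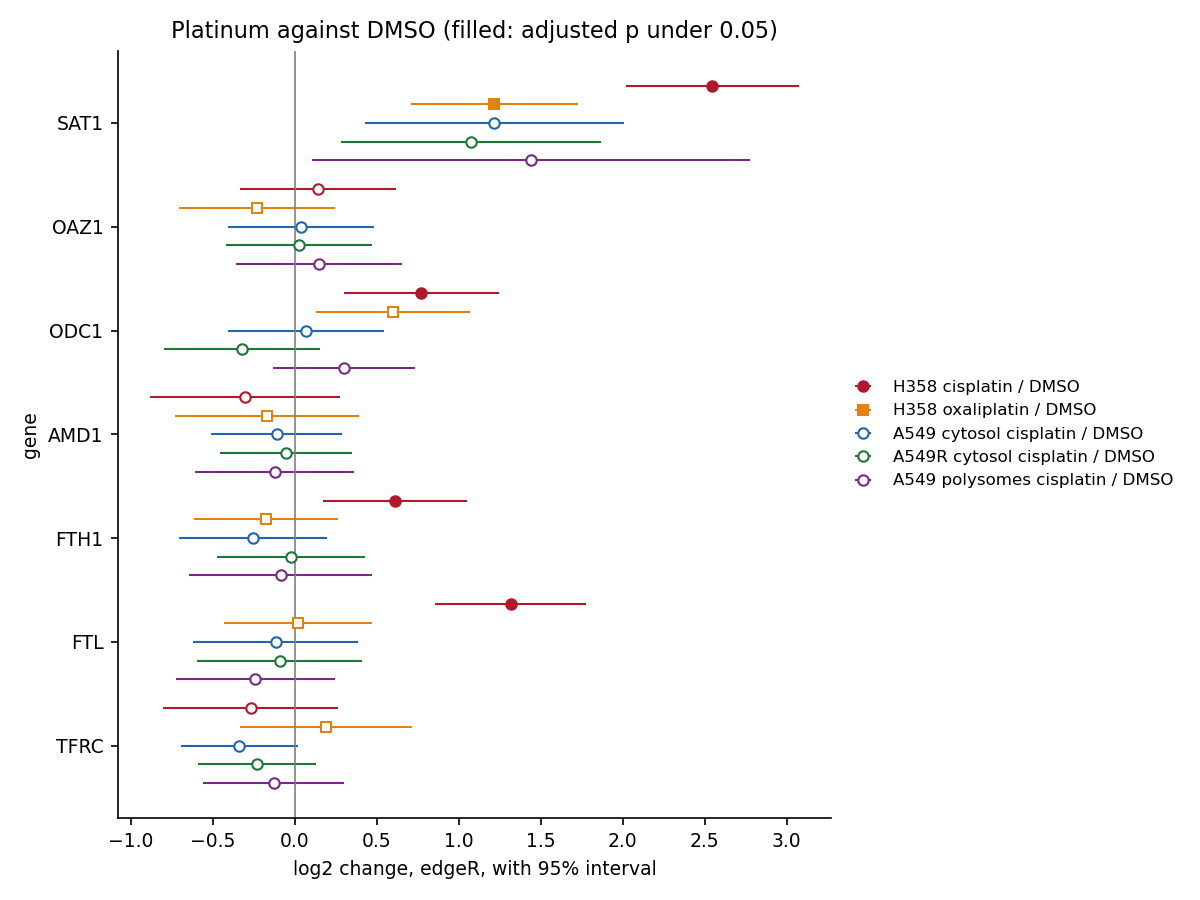
Log2 change of each gene with platinum over DMSO in 5 settings, with its 95% interval; filled markers had an adjusted p under 0.05. SAT1 lies above 0 in all 5 settings, with filled markers for H358 cisplatin (2.55) and H358 oxaliplatin (1.22). ODC1, FTL and FTH1 are filled in H358 cisplatin.

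In A549 cytosol, cisplatin left 0 of 7 genes called, where 7.18% of 16439 rows were called, 3.26% higher and 3.92% lower. An unadjusted p under 0.05 was found for 3945 of the 16439 rows, and DESeq2 called 1586 of them. Of the 7 genes, 1 had an unadjusted p under 0.05, and DESeq2 called 1. That gene was SAT1, with 176, 255 and 534 CPM in cisplatin libraries and 91.2, 127 and 217 CPM in DMSO libraries. The groups overlapped, yet within each replicate number the cisplatin library was higher. The log2 change was 1.22 ± 0.37 (edgeR adjusted p = 0.0607), and it was called with the replicate block (edgeR adjusted p = 0.0283) and by DESeq2 (DESeq2 adjusted p = 0.0253). Ferritin values were -0.12 for FTL (interval -0.62 to 0.39) and -0.25 for FTH1 (interval -0.71 to 0.20). TFRC had 108, 120 and 113 CPM in cisplatin libraries, all below 151, 157 and 144 CPM in DMSO libraries, with a log2 change of -0.34 ± 0.17 that was not called (edgeR adjusted p = 0.235). ODC1 (0.07), OAZ1 (0.04) and AMD1 (-0.11) had log2 changes near 0.

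In the A549R line, cisplatin also left 0 of 7 genes called, where 4.54% of rows were, 2.45% higher and 2.1% lower (290 higher and 456 lower without scaling factors, against 402 and 345 with them). An unadjusted p under 0.05 was found for 3584 of 16439 rows, and DESeq2 called 1201 of them. Of the 7 genes, 1 had an unadjusted p under 0.05, and DESeq2 called 0. SAT1 had 194, 276 and 132 CPM in cisplatin libraries, against 79.7, 110 and 76.7 CPM in DMSO libraries. The groups did not overlap, and the log2 change was 1.08 ± 0.37 (edgeR adjusted p = 0.109). FTL (-0.09), FTH1 (-0.02), TFRC (-0.23), ODC1 (-0.32), OAZ1 (0.03) and AMD1 (-0.05) were not called. The response to cisplatin, set between A549R and A549, differed for 0 of 16439 rows (307 at an unadjusted p under 0.05; DESeq2 also called 0). For SAT1 that difference was -0.14 on the log2 scale, with an interval of -1.25 to 0.97, which leaves room for changes as large as the response itself.

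Resistant and parental cells were next compared at the same treatment. In DMSO, FTL was lower in A549R, the 1 called gene of 7, where 2.11% of rows were called, 1.1% higher and 1.01% lower (219 higher and 105 lower without scaling factors, against 181 and 166 with them). FTL had 12230, 14406 and 15249 CPM in A549R libraries, against 30595, 31547 and 19844 CPM in A549 libraries. The groups did not overlap, and the log2 difference was -0.98 ± 0.24 (edgeR adjusted p = 0.0472). FTH1 had 1484, 1825 and 1717 CPM in A549R libraries, all below 2146, 2918 and 2030 CPM in A549 libraries, with a log2 difference of -0.51 ± 0.21 that was not called (edgeR adjusted p = 0.255). FTL reads per FTH1 read were 8.24, 7.89 and 8.88 in A549R and 14.3, 10.8 and 9.77 in A549. OAZ1 (0.41), SAT1 (-0.61), TFRC (-0.22), AMD1 (-0.15) and ODC1 (0.15) were not called.

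In cisplatin the FTL difference was of the same size, with 8148, 14704 and 14489 CPM in A549R and 24328, 28080 and 19913 CPM in A549. The log2 difference was -0.96 ± 0.24 (edgeR adjusted p = 0.0595), and 0 of 7 genes were called, where 1.64% of rows were, 0.937% higher and 0.7% lower. An unadjusted p under 0.05 was found for 2382 of 16439 rows, and DESeq2 called 526 of them. Of the 7 genes, 1 had an unadjusted p under 0.05, and DESeq2 called 1, FTL (DESeq2 adjusted p = 0.0158). Of 139 other peaks within 2500000 bases of FTL, 9 were called in DMSO and 10 in cisplatin. In DMSO 108 of them had a log2 difference below 0 and 31 above, with a median of -0.40 against 0.00 over all rows, and in cisplatin 97 lay below 0 and 42 above, with a median of -0.33 against 0.02. A leaning of neighbours was not particular to FTL. Of 18 such peaks around AMD1, 16 lay above 0 and 2 below in DMSO (median 0.34). In cisplatin 14 of them lay above 0 and 4 below (median 0.28), and 0 were called in either treatment. The list kind coincides with the line in this comparison, so the 2 cannot be told apart. In DMSO the FTL call was lost in 7 of the 12 fits that left out 1 library: A549 DMSO replicate 1 or 2, A549 cisplatin replicate 1 or 2, or any A549R DMSO replicate (edgeR adjusted p up to 0.18).

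The response to cisplatin was also set between H358 whole cells and A549 cytosol, a comparison added after the data were seen. The ferritin chains FTL and FTH1 had a larger log2 change in H358, so that 2 of 7 genes were called higher and 0 lower, where 5.18% of 12260 rows were called, 2.9% higher and 2.28% lower (226 higher and 894 lower without scaling factors, against 356 and 279 with them). SAT1 was not called (edgeR adjusted p = 0.0879), and line and extract cannot be told apart.

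**Figure D4:**
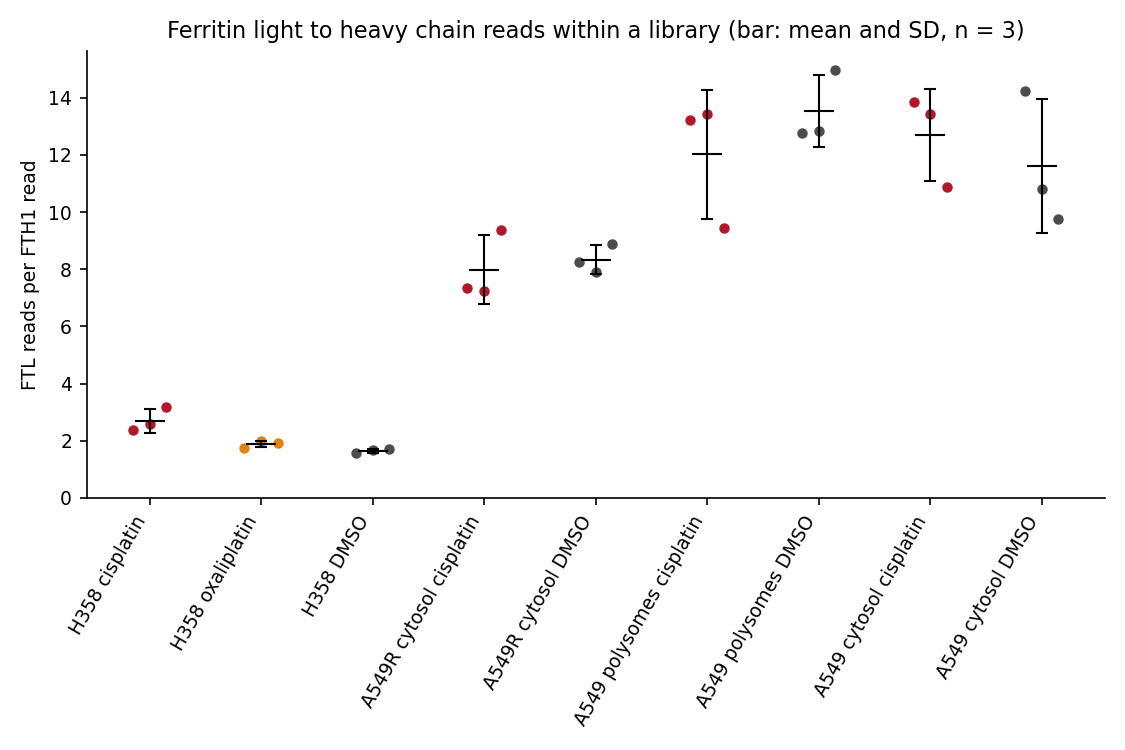
FTL reads per FTH1 read within each of 27 libraries, by group, with the mean and SD of 3 libraries. H358 cisplatin (2.70 ± 0.42) lies above H358 DMSO (1.65 ± 0.07), and A549R DMSO (8.34 ± 0.50) below A549 cytosol DMSO (11.6 ± 2.35).

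In heavy polysomes of A549, cisplatin left 0 of 7 genes called, where 0.704% of 21585 rows were called, 0.422% higher and 0.283% lower. An unadjusted p under 0.05 was found for 3358 of the 21585 rows, and DESeq2 called 739 of them. Of the 7 genes, 1 had an unadjusted p under 0.05, and DESeq2 called 0. SAT1 had 46.2, 67.8 and 210 CPM in cisplatin libraries and 24.9, 31.1 and 70.9 CPM in DMSO libraries. In each replicate number the cisplatin library was higher, with a log2 change of 1.44 ± 0.59 (edgeR adjusted p = 0.287), which was called with the replicate block (1.32, edgeR adjusted p = 0.00256). It was 0.50 without cisplatin replicate 3 and 2.09 without DMSO replicate 3, neither called. The third library of each treatment was the highest in its group, and these are the 2 polysome libraries with the shorter kind of list. ODC1 (0.30), OAZ1 (0.15), FTH1 (-0.09), AMD1 (-0.12), TFRC (-0.13) and FTL (-0.24) were not called.

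Polysomes against cytosol asks which transcripts are over- or under-represented among heavily loaded ones. TFRC was higher in polysomes and 5 genes were lower, both in DMSO, where 39.7% of 17308 rows were called, 19.9% higher and 19.8% lower, and in cisplatin, where 43.3% were, 21% higher and 22.3% lower (5010 higher and 2663 lower without scaling factors, against 3640 and 3861 with them). The median log2 difference of the 7 genes was -1.50 in DMSO and -1.45 in cisplatin, beside 0.01 and 0.00 over all rows. Both ferritin chains and SAT1 had the lowest values.

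TFRC had 370, 389 and 349 CPM in DMSO polysomes, against 151, 157 and 144 CPM in DMSO cytosol. The groups were far apart, and the log2 difference was 1.17 ± 0.16 in DMSO (edgeR adjusted p = 9.48e-05) and 1.30 ± 0.16 in cisplatin (edgeR adjusted p = 4.86e-05). The strongest TFRC end had a log2 difference of 1.24 ± 0.15 in DMSO, while the upstream end had 0.75 ± 0.29 (edgeR adjusted p = 0.0561). FTH1 had 824, 685 and 387 CPM in DMSO polysomes, against 2146, 2918 and 2030 CPM in DMSO cytosol, with a log2 difference of -2.04 ± 0.23 in DMSO and -1.93 ± 0.23 in cisplatin. FTL had 10522, 8792 and 5797 CPM in DMSO polysomes, against 30595, 31547 and 19844 CPM in DMSO cytosol, with -1.84 ± 0.24 in DMSO and -2.02 ± 0.24 in cisplatin. Both ferritin chains were lower in polysomes, in both treatments, and FTL reads per FTH1 read were 13.5 ± 1.26 in DMSO polysomes and 11.6 ± 2.35 in DMSO cytosol.

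Of the polyamine genes, SAT1 had 24.9, 31.1 and 70.9 CPM in DMSO polysomes, against 91.2, 127 and 217 CPM in DMSO cytosol, and log2 differences of -2.01 ± 0.59 in DMSO (edgeR adjusted p = 0.0159) and -1.84 ± 0.58 in cisplatin (edgeR adjusted p = 0.021). The end between the outer SAT1 ends had the lowest value, -3.48 ± 0.66 in DMSO. OAZ1, whose translation in full needs a ribosomal frameshift, had 521, 352 and 430 CPM in DMSO polysomes, against 1036, 1128 and 1226 CPM in DMSO cytosol, with -1.50 ± 0.21 in DMSO and -1.45 ± 0.21 in cisplatin. AMD1 had a log2 difference of -0.86 ± 0.18 in DMSO and -0.93 ± 0.18 in cisplatin, both called, and neither was with no count minimum (edgeR adjusted p = 0.137 and 0.25). ODC1 was the 1 gene not called in either treatment, at -0.50 ± 0.21 in DMSO (edgeR adjusted p = 0.0793) and -0.32 ± 0.21 in cisplatin; with the replicate block, the DMSO value was called (edgeR adjusted p = 0.0194), as it was without DMSO cytosol replicate 3 (edgeR adjusted p = 0.0116). The difference between treatments was called for 0 of 17308 rows (208 at an unadjusted p under 0.05; DESeq2 also called 0). With the replicate block it was called for 0 rows as well. Over all rows, the median half-width of the interval of this difference was 0.94 on the log2 scale. For SAT1 this difference ran from -0.71 to 0.88 in fits that left out 1 library. The 0 calls therefore do not show that cisplatin leaves the difference between polysomes and cytosol unchanged. The list kind differs between polysomes and cytosol for 4 of 6 polysome libraries, and SAT1 lost its DMSO call without cytosol replicate 3 or polysome replicate 1 or 2 (edgeR adjusted p up to 0.0687) and its cisplatin call without the same numbers of the cisplatin libraries (up to 0.1). With 1 library left out the SAT1 value lay between -2.64 and -1.65 in DMSO and between -2.73 and -1.30 in cisplatin. SAT1 was also not called with all peaks of mean count at least 5 (edgeR adjusted p = 0.113 in DMSO and 0.116 in cisplatin) nor, in cisplatin, with the strongest end alone (edgeR adjusted p = 0.0572).

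**Figure D5:**
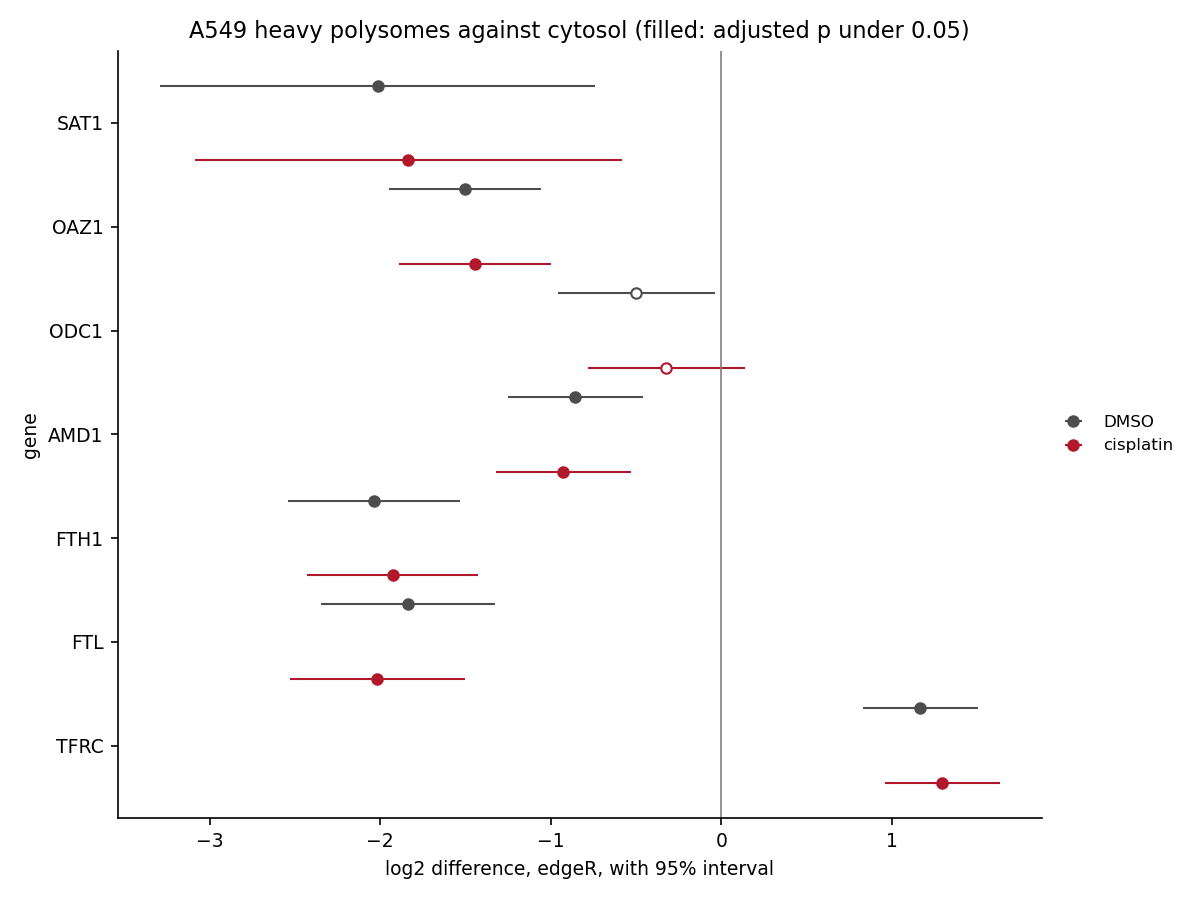
Log2 difference of A549 heavy polysomes over cytosol for each gene in DMSO and in cisplatin, with its 95% interval; filled markers had an adjusted p under 0.05. TFRC lies above 0 (1.17 in DMSO, 1.30 in cisplatin), and the other 6 genes below 0, with open markers for ODC1 (-0.50 in DMSO, -0.32 in cisplatin).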

How the data were processed

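Poly(A)+ RNA of 27 libraries was fragmented, reverse transcribed from oligo-dT, amplified and read from a single end, per the labels' protocols. The authors deposited a peak list per library with raw, whole-number read counts; the smallest is 5. Tools listed in the submitters' processing notes are bedtools 2.17.0, Bowtie2 2.2.5 and SAMtools 1.1. Peak calling and filtering criteria were not stated in them. The same notes name build mm9, but positions fit human hg19 and are given so, counted from 1. Peaks overlapping by at least 1 base on a strand were merged. Merged peaks listed in every library of a fit, plus a summed row per gene (its ends listed in all libraries of the fit), were tested with edgeR 4.0.16 (quasi-likelihood, TMM factors, R 4.3.3), adjusted over all rows; groups fitted together share 1 estimate of the spread. The fits were checked on simulated counts. Levels and tests use different peak sets. Alternatives were DESeq2 1.42.0, other scalings and filters, the replicate block and leaving out libraries. Shares of secondary ends, over a gene's ends listed in every library of the fit, were compared with exact permutation tests.

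Replicate numbers come from the labels. By the rule that each pair's deviations correlate above 0.1, they pair libraries in H358 oxaliplatin against DMSO, in the cisplatin comparisons of A549, A549R and polysomes, between A549R and A549 in DMSO, and between polysomes and cytosol, but not in H358 cisplatin against DMSO or oxaliplatin, nor between A549R and A549 in cisplatin. All 7 genes are named, and all peaks in their windows counted; the genes, lists and tests were chosen with earlier results of these data known. Other pathway genes and cell line markers were not analysed here, for want of an hg19 annotation.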

Additional observations from a re-analysis of the deposited data

Results flagged for a closer look

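The response to cisplatin was set between H358 whole cells and A549 cytosol over 12260 rows, a comparison added after the data were examined. FTL differed, with a log2 change that was larger in H358 by 1.60 ± 0.34 (edgeR adjusted p = 0.00993). FTH1 differed too, by 1.03 ± 0.29 (edgeR adjusted p = 0.0434), a call lost in 9 of the 12 fits that left out 1 library and with RLE scaling (edgeR adjusted p = 0.0518), without scaling factors, and with both settings that take all peaks (edgeR adjusted p up to 0.434). FTL was not called with all peaks of mean count at least 5 (1.04, edgeR adjusted p = 0.0988). They are given here because the test of the difference itself passed the threshold for 2 of 7 genes, where 5.18% of all rows were called. SAT1 (1.5, edgeR adjusted p = 0.0879), ODC1 (0.87), OAZ1 (0.28), TFRC (0.26) and AMD1 (-0.02) were not called; SAT1 was without A549 cisplatin replicate 3 (edgeR adjusted p = 0.00524) and ODC1 without A549 DMSO replicate 3 (edgeR adjusted p = 0.0365). Line and extract, whole cells against cytosol, cannot be told apart in this comparison.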

How the results depend on the processing

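SAT1 and FTL in H358 cisplatin against DMSO, and SAT1 and FTL in cisplatin against oxaliplatin, kept their direction and call in every alternative and leave-one-out fit that was run, as did OAZ1, FTH1, FTL and TFRC in polysomes against cytosol, in both treatments. In the 2 settings that take all peaks, an unlisted peak enters as 0, which by construction lowers the counts of groups with the shorter lists. Of 1715 alternative log2 values 95 changed sign. Among those that kept their sign, 48 lost a call and 32 gained one. For the changes below the cause was not tested. Of the 53 comparisons of end shares, which reuse libraries, 15 had groups without overlap. The smallest p of the exact permutation test was 0.1, or 0.353 after adjustment, so none was called. No such count was taken over other genes, so the 15 cannot be read as particular to these. Of 424 alternative share values, 35 changed sign.

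For the settings listed here, the number of the 7 genes called is given with the rows called over the whole table in the same setting. Calls in H358 cisplatin against oxaliplatin and in polysomes against cytosol also moved in some settings. Those genes are named elsewhere in the text, and no number is given here for them by setting. In H358 cisplatin against DMSO the number was 2 without scaling factors (4688 of 14358 rows) and 2 with all peaks of mean count at least 5 (8976 of 47950). In H358 oxaliplatin against DMSO it was 2 with the replicate block (2239 of 14358 rows). With all peaks of mean count at least 5 it was 4 (OAZ1, AMD1, FTH1 and FTL, all lower), where 22482 of 47950 rows were called lower. With no count minimum it was 3 (OAZ1, AMD1 and FTH1, all lower), where 26112 of 124285 rows were called lower. SAT1 was not called in either of these 2 settings. In A549 cytosol the number was 1 with DESeq2 (1586 of 16439 rows), 1 with the replicate block (1960 of 16439) and 1 with no count minimum (3441 of 171928). In A549R cytosol it was 1 with no count minimum (3357 of 171928), and in polysomes 1 with the replicate block (2031 of 21585). Between A549R and A549 in DMSO it was 2 with no count minimum (42781 of 171928 rows). Between them in cisplatin it was 1 with DESeq2 (526 of 16439) and 1 with the replicate block (665 of 16439). It was also 1 with all peaks of mean count at least 5 (26558 of 57359), and 2 with no count minimum (42840 of 171928). In the H358 against A549 response it was 1 with RLE scaling (625 of 12260 rows) and 1 without scaling factors (1120 of 12260). There it was 0 with all peaks of mean count at least 5 (1566 of 47295) and 1 with no count minimum (2686 of 144000). Fits that left out 1 library called 2 to 4 genes in H358 cisplatin against DMSO (2645 to 3977 of 14358 rows) and 0 to 1 in A549 cytosol (407 to 1489 of 16439). They called 0 to 1 between A549R and A549 in DMSO (126 to 535 of 16439) and 0 to 1 between them in cisplatin (102 to 347 of 16439). In the H358 against A549 response they called 1 to 3 (380 to 698 of 12260). In polysomes against cytosol they called 5 to 6 in DMSO (5125 to 7358 of 17308) and 5 to 6 in cisplatin (5905 to 7995 of 17308). Beside the calls given in the report, the replicate block called TFRC in H358 cisplatin against oxaliplatin (-0.49, edgeR adjusted p = 0.0416) and FTL in A549R against A549 in cisplatin (-0.97, edgeR adjusted p = 0.0207). It also called SAT1 in the H358 against A549 response (edgeR adjusted p = 0.0231). For the first and the second of these the rule for pairing was not met, and for the third pairing was not checked. The block changed no other call of the 7 genes.

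Rows called over the whole table with the settings of the report were 3761 in H358 cisplatin against DMSO, 766 in H358 oxaliplatin against DMSO, 2754 in H358 cisplatin against oxaliplatin, 1181 in A549 cytosol cisplatin against DMSO, 747 in A549R cytosol cisplatin against DMSO, 0 in the A549R against A549 response, 347 in A549R against A549 in DMSO, 269 in A549R against A549 in cisplatin, 152 in A549 polysomes cisplatin against DMSO, 635 in the H358 against A549 response, 6875 in A549 polysomes against cytosol in DMSO, 7501 in A549 polysomes against cytosol in cisplatin, 0 in the polysome against cytosol response. The 2 settings that take all peaks test more rows, so their counts cannot be read as shares of the same table. Rows tested in H358 were 47950 with mean count at least 5 and 124285 with no count minimum, against 14358. In the same order they were 57359, 171928 and 16439 in cytosol, and 74786, 162280 and 21585 in polysomes. In the H358 against A549 response they were 47295, 144000 and 12260, and in polysomes against cytosol 59103, 178259 and 17308. Counts that differed by more than 1.5 times were as follows, those without 1 library after the others. With the replicate block they were 2239 in H358 oxaliplatin against DMSO, 4222 in H358 cisplatin against oxaliplatin, 1960 in A549 cytosol cisplatin against DMSO, 1550 in A549R cytosol cisplatin against DMSO, 914 in A549R against A549 in DMSO, 665 in A549R against A549 in cisplatin, 2031 in A549 polysomes cisplatin against DMSO. With DESeq2 they were 1201 in A549R cytosol cisplatin against DMSO, 658 in A549R against A549 in DMSO, 526 in A549R against A549 in cisplatin, 739 in A549 polysomes cisplatin against DMSO. Without scaling factors they were 1120 in the H358 against A549 response. With all peaks of mean count at least 5 they were 8976 in H358 cisplatin against DMSO, 22550 in H358 oxaliplatin against DMSO, 23065 in H358 cisplatin against oxaliplatin, 327 in A549 cytosol cisplatin against DMSO, 229 in A549R cytosol cisplatin against DMSO, 7 in the A549R against A549 response, 26810 in A549R against A549 in DMSO, 26558 in A549R against A549 in cisplatin, 0 in A549 polysomes cisplatin against DMSO, 1566 in the H358 against A549 response, 3800 in A549 polysomes against cytosol in DMSO, 4123 in A549 polysomes against cytosol in cisplatin, 1 in the polysome against cytosol response. With no count minimum they were 14405 in H358 cisplatin against DMSO, 26358 in H358 oxaliplatin against DMSO, 32807 in H358 cisplatin against oxaliplatin, 3441 in A549 cytosol cisplatin against DMSO, 3357 in A549R cytosol cisplatin against DMSO, 1060 in the A549R against A549 response, 42781 in A549R against A549 in DMSO, 42840 in A549R against A549 in cisplatin, 1 in A549 polysomes cisplatin against DMSO, 2686 in the H358 against A549 response, 19120 in A549 polysomes against cytosol in DMSO, 18744 in A549 polysomes against cytosol in cisplatin, 195 in the polysome against cytosol response. Without 1 library they were 323 to 1061 in H358 oxaliplatin against DMSO, lower by over 1.5 times without oxaliplatin replicate 2 or 3 or DMSO replicate 1. In A549 cytosol they were 407 to 1489, lower by as much without cisplatin replicate 2 or 3 or DMSO replicate 1 or 2. In A549R cytosol they were 193 to 1242, lower without replicate 1 or 2 of either treatment and higher without cisplatin replicate 3. Between A549R and A549 they were 126 to 535 in DMSO, lower without replicate 1 or 2 of either line and higher without A549 replicate 3, and 102 to 347 in cisplatin, lower without replicate 1 or 2 of either line. In their response they were 0 to 1, with 1 without A549R cisplatin replicate 3 or A549 DMSO replicate 3. In polysomes they were 10 to 120, lower by over 1.5 times without replicate 1 or 2 of either treatment. In the H358 against A549 response they were 380 to 698, lower without H358 cisplatin replicate 2, H358 DMSO replicate 1 or replicate 2 of either A549 group. In the other comparisons they moved by less.

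Calls gained without being named in the report were OAZ1 in H358 cisplatin against oxaliplatin with all peaks of mean count at least 5, and, with no count minimum, SAT1 in A549 cytosol, in A549R cytosol and between A549R and A549 in both treatments. SAT1 in A549 cytosol was also called without cisplatin replicate 1 or DMSO replicate 3, and FTL between A549R and A549 in cisplatin with both settings that take all peaks and without A549 cisplatin replicate 3 or A549 DMSO replicate 3.

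Without scaling factors, the log2 value turned to OAZ1 -0.20 in H358 cisplatin against DMSO, OAZ1 -0.028 and ODC1 -0.20 in H358 cisplatin against oxaliplatin, OAZ1 -0.036 and ODC1 -0.0056 in A549 cytosol cisplatin against DMSO, OAZ1 -0.070 in A549R cytosol cisplatin against DMSO, FTL -0.024 in the A549R against A549 response, OAZ1 -0.13 and TFRC -0.16 in the H358 against A549 response, AMD1 0.087 in the polysome against cytosol response. With the strongest end alone, the log2 value turned to AMD1 0.035 in H358 cisplatin against oxaliplatin, SAT1 0.13 and AMD1 -0.075 in the A549R against A549 response, AMD1 0.011 in A549 polysomes cisplatin against DMSO. With the replicate block, the log2 value turned to OAZ1 0.031 in the A549R against A549 response, AMD1 0.025 in the H358 against A549 response. With all peaks of mean count at least 5, the log2 value turned to OAZ1 -0.37 in H358 cisplatin against DMSO, ODC1 -0.11 and FTL -0.67 and TFRC -0.49 in H358 oxaliplatin against DMSO, AMD1 0.13 in H358 cisplatin against oxaliplatin, OAZ1 0.016 in the A549R against A549 response, OAZ1 -0.29 and TFRC -0.37 in the H358 against A549 response, AMD1 0.12 in the polysome against cytosol response. With no count minimum, the log2 value turned to OAZ1 -0.44 in H358 cisplatin against DMSO, FTL -0.45 and TFRC -0.28 in H358 oxaliplatin against DMSO, OAZ1 0.030 in the A549R against A549 response, AMD1 0.029 in A549 polysomes cisplatin against DMSO, OAZ1 -0.037 and TFRC -0.13 in the H358 against A549 response, AMD1 0.17 in the polysome against cytosol response. With a count of at least 10 in every library, the log2 value turned to OAZ1 0.0054 in the A549R against A549 response. Of these the FTL value in H358 oxaliplatin against DMSO (-0.67, edgeR adjusted p = 0.00846) was called, and no other was. With every listed peak of the window counted, the share difference of secondary ends, in percentage points, turned to SAT1 -5.80 in H358 cisplatin against DMSO, AMD1 -5.45 in H358 oxaliplatin against DMSO, OAZ1 -0.029 in H358 cisplatin against oxaliplatin, FTH1 -0.16 and TFRC 0.61 in A549 cytosol cisplatin against DMSO, FTH1 -0.26 in A549R against A549 in DMSO, AMD1 -3.12 in A549R against A549 in cisplatin, FTH1 -0.13 and TFRC 0.26 in A549 polysomes cisplatin against DMSO, AMD1 -3.12 in A549 polysomes against cytosol in DMSO.

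Leave-one-out fits gave these ranges of log2 values that crossed 0, none of them called. In H358 cisplatin against DMSO they gave OAZ1 -0.014 to 0.38 and AMD1 -0.51 to 0.025. In H358 oxaliplatin against DMSO they gave OAZ1 -0.39 to 0.0074, AMD1 -0.38 to 0.16 and FTL -0.10 to 0.11. In H358 cisplatin against oxaliplatin they gave AMD1 -0.27 to 0.11. In A549 cytosol cisplatin against DMSO they gave OAZ1 -0.14 to 0.13, ODC1 -0.16 to 0.28 and FTL -0.31 to 0.0015. In A549R cytosol cisplatin against DMSO they gave OAZ1 -0.10 to 0.30, AMD1 -0.16 to 0.073, FTH1 -0.29 to 0.18 and FTL -0.25 to 0.15. In the A549R against A549 response they gave SAT1 -0.50 to 0.39, OAZ1 -0.14 to 0.27, AMD1 -0.048 to 0.19, FTH1 -0.020 to 0.43 and FTL -0.12 to 0.26. In A549R against A549 in DMSO they gave ODC1 -0.085 to 0.36. In A549R against A549 in cisplatin they gave AMD1 -0.21 to 0.026. In A549 polysomes cisplatin against DMSO they gave FTH1 -0.31 to 0.13. In the H358 against A549 response they gave AMD1 -0.24 to 0.30. In the polysome against cytosol response they gave SAT1 -0.71 to 0.88, OAZ1 -0.087 to 0.29, ODC1 -0.036 to 0.39, AMD1 -0.18 to 0.085, FTH1 -0.067 to 0.40 and FTL -0.31 to 0.062. For the share differences of secondary ends, in percentage points, the ranges were FTL -0.013 to 0.21 in H358 cisplatin against DMSO; SAT1 -5.18 to 2.34, FTH1 -0.14 to 0.084, FTL -0.17 to 0.046 in H358 oxaliplatin against DMSO; FTH1 -0.036 to 0.15, FTL -0.069 to 0.017, TFRC -1.68 to 0.81 in A549 cytosol cisplatin against DMSO; FTH1 -0.15 to 0.12 in A549R cytosol cisplatin against DMSO; SAT1 -1.86 to 3.95, FTH1 -0.12 to 0.15 in A549R against A549 in DMSO; AMD1 -1.43 to 4.06, FTH1 -0.15 to 0.0081 in A549R against A549 in cisplatin; SAT1 -3.57 to 2.38, FTH1 -0.029 to 0.13, TFRC -1.87 to 1.82 in A549 polysomes cisplatin against DMSO; AMD1 -0.26 to 4.09 in A549 polysomes against cytosol in DMSO.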

Other observations

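For each gene, the 1 peak outside the windows whose level was most like it over the 9 group means, among 10269 peaks listed in all libraries, was sought by Pearson's r of log2(CPM + 1). These values describe a search and carry no test. For FTH1 it was the peak at chromosome 1, 228823169 to 228823628, plus strand (r = 0.999), with 3.21% as many reads as FTH1. For FTL it was a peak of 38 bases at chromosome 20, 10474954 to 10474991, plus strand (r = 0.998), with 0.354% as many reads as FTL. For OAZ1 it was the peak at chromosome 16, 58055075 to 58055528, plus strand (r = 0.997), with 3.04% as many reads. RefSeq on GRCh38.p14 names FTH1 pseudogenes on 12 chromosomes, chromosome 1 among them, and FTL pseudogenes on 13, chromosome 20 among them. The 1 OAZ1 pseudogene it names is on chromosome 1, not 16. Positions of the pseudogenes could not be set against hg19 here, and whether any of these peaks is a copy was not tested.

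For TFRC the most alike peak lay at chromosome 17, 62499036 to 62499225, minus strand (r = 0.992). For AMD1 it lay at chromosome 10, 72643257 to 72643806, minus strand (r = 0.982), and for SAT1 at chromosome 17, 26688209 to 26689624, plus strand (r = 0.978). For ODC1 it lay at chromosome 8, 33358431 to 33358817, plus strand (r = 0.957).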
